A study of Mus musculus with 12 samples.

Results

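The genes of the MAP kinase cascade were taken as the protein-coding genes of GRCm38 whose symbols read Mapk, Map2k, Map3k or Map4k followed by a number. There were 43 of them among 21896 protein-coding genes: 13 MAPK, 7 MAP2K, 18 MAP3K and 5 MAP4K genes. A region was taken for such a gene when it overlapped the gene or, overlapping no gene, had it as the nearest protein-coding gene within 50000 bases. This gave 61 of 16028 accessible regions (14810 of which could be assigned to any protein-coding gene), at 36 of the 43 genes. Accessibility had been measured by ATAC-seq, in which Tn5 transposase inserts adapters into open chromatin, in ER-Hoxa9-Lys-GFP cells of C57BL/6 origin. This murine myeloid progenitor line is kept immature by Hoxa9 fused to the estrogen receptor, which is active while estradiol (E2) is present, and it reports lysozyme expression through GFP; all groups carry both. The labels do not state whether the line is 1 clone. The 12 libraries formed 6 groups of 2: cells kept in E2 throughout, cells deprived of E2 for 120 h, and cells deprived for 24, 40, 56 or 72 h that then had E2 back for 96, 80, 64 or 48 h. All were grown in medium conditioned with SCF, the ligand of Kit. Lists are named here by their hours without E2. Time without E2 and time after its return add up to the same total in the 4 add-back groups, so their parts cannot be told apart.

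In the cascade, an upstream MAP4K or small GTPase activates a MAP3K, which phosphorylates a MAP2K, which in turn phosphorylates a MAPK on a threonine and a tyrosine of its activation loop. The main outputs are the ERK kinases, driven by growth factor receptors through Ras and Raf, and the JNK and p38 kinases, driven by stress and inflammatory signals. In myeloid cells, ERK signals downstream of cytokine receptors such as Kit, and p38 and JNK act in the responses of mature phagocytes.

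One peak list stood for both libraries of each group, and it held positions only. No depth, score or value per library was given, so no difference between groups could be tested, and "called" below means that the group's list holds a peak overlapping the region by 1 base or more. A region called with continuous E2 is kept if it is also called at 120 h and lost if it is not; a gained region is called at 120 h without being called in continuous E2. Intervals are 95% Wilson intervals, except that of a difference in the closing section, and cover counting error over regions only. After cleaning, the lists held from 7987 peaks (120 h) to 13165 (continuous E2), and list length moved with the groups; its part in the results below was not tested, apart from the alternatives given in the closing section. In bulk cells, a region open in fewer cells and a region less open in each cell cannot be told apart. Among markers of the labelled cell type, all 7 progenitor genes looked up (such as Kit, Cd34, Flt3 and Myb) had regions, 18 lost, 3 kept and 2 gained. Of 7 late neutrophil genes, 5 had regions (1 kept, 1 lost and 4 gained regions), while Lyz2 and Camp had none. Gata1, Epor, Cd3e and Cd4, markers of erythroid and lymphoid cells, had no region, and Klf1 and Pax5 had 1 lost region each.

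Promoters of the MAP2K tier and of Mapk6 (ERK3) are shown because they include both kept and lost regions. The 250 bases before the annotated start come from RefSeq, GRCm38.p6, 5′ to 3′ on the strand of the gene, for windows that touch no protein-coding gene. Capitals mark matches, on either strand, to GGGCGG (the GC box), CCAAT (the NF-Y box), TGANTCA (AP-1) and TTGCNNAA (C/EBP). Map2k1, kept (chr9:64253606-64253855, minus strand), Map2k3, kept (chr11:60931804-60932053, plus), Map2k4, kept (chr11:65788360-65788609, minus), Map2k6, lost (chr11:110398852-110399101, plus), Map2k7, kept (chr8:4238490-4238739, plus) and Mapk6, lost (chr9:75410017-75410266, minus) read as follows.
Map2k1: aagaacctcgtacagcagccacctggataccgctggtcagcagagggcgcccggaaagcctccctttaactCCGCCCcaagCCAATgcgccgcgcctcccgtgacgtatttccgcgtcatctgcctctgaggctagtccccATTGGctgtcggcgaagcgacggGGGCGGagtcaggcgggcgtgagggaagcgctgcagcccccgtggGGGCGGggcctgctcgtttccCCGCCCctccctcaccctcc
Map2k3: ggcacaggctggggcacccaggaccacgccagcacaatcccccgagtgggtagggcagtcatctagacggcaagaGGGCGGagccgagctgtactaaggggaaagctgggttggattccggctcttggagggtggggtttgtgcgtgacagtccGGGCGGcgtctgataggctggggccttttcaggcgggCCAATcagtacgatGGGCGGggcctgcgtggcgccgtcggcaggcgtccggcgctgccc
Map2k4: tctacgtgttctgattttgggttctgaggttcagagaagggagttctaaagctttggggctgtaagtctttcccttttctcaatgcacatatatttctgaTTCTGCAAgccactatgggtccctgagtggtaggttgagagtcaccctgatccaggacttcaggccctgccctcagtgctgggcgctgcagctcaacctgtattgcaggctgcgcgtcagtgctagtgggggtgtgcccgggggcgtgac
Map2k6: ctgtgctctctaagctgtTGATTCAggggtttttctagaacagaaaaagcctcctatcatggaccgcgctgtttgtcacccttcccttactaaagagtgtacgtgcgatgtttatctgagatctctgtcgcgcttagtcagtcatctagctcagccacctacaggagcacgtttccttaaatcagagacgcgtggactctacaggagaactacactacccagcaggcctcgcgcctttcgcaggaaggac
Map2k7: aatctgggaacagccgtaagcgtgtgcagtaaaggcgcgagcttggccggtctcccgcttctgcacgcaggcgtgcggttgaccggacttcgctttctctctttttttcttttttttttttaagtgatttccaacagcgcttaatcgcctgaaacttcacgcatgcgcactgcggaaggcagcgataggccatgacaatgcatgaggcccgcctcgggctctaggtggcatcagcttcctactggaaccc
Mapk6: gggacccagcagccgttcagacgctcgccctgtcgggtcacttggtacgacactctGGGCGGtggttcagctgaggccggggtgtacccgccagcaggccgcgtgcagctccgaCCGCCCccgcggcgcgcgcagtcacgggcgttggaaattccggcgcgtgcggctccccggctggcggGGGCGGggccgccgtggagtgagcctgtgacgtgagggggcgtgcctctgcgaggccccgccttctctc
The Map2k6 window held an AP-1 match and no GC box, and 12 CpG. The Map2k3 window, at the gene of the other p38 kinase kinase, held 3 GC boxes, 1 NF-Y box and 20 CpG. Map2k4 had the fewest CpG of the 6 windows with 6, and Mapk6 the most with 32. A match is a run of letters and no measured binding.

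The opening comparison set continuous E2 against 120 h without it. Each tier had at least 1 gene whose start was open at both end points, while most regions away from the gene boundaries were not called at 120 h. Of the 61 regions, 22 were called at both end points (kept; 36.1%, against 42.3% of all regions assigned to protein-coding genes) and 26 in continuous E2 and not at 120 h (lost; 42.6%, against 40.2%). A further 9 were called at 120 h and not in continuous E2 (gained; 14.8%, against 9.03%) and 4 at neither of the 2 (6.56%, against 8.41%). Of the 48 regions called in continuous E2, 54.2% were lost (interval 40.3 to 67.4), against 48.7% over all genes. Of the 31 called at 120 h, 29.0% were gained (16.1 to 46.6), against 17.6% over all. Both values over all genes lay inside the intervals, so neither share set the kinase genes apart. With every list reduced to the length of the shortest by keeping its widest peaks, the gained share was 48.4% (32.0 to 65.2), against 36.6% over all genes under the same setting, again inside the interval. Regions of the same gene share that gene, and Mapk4 alone held 2 of the 9 gained regions; without it the gained share was 24.1%.

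**Figure D1:**
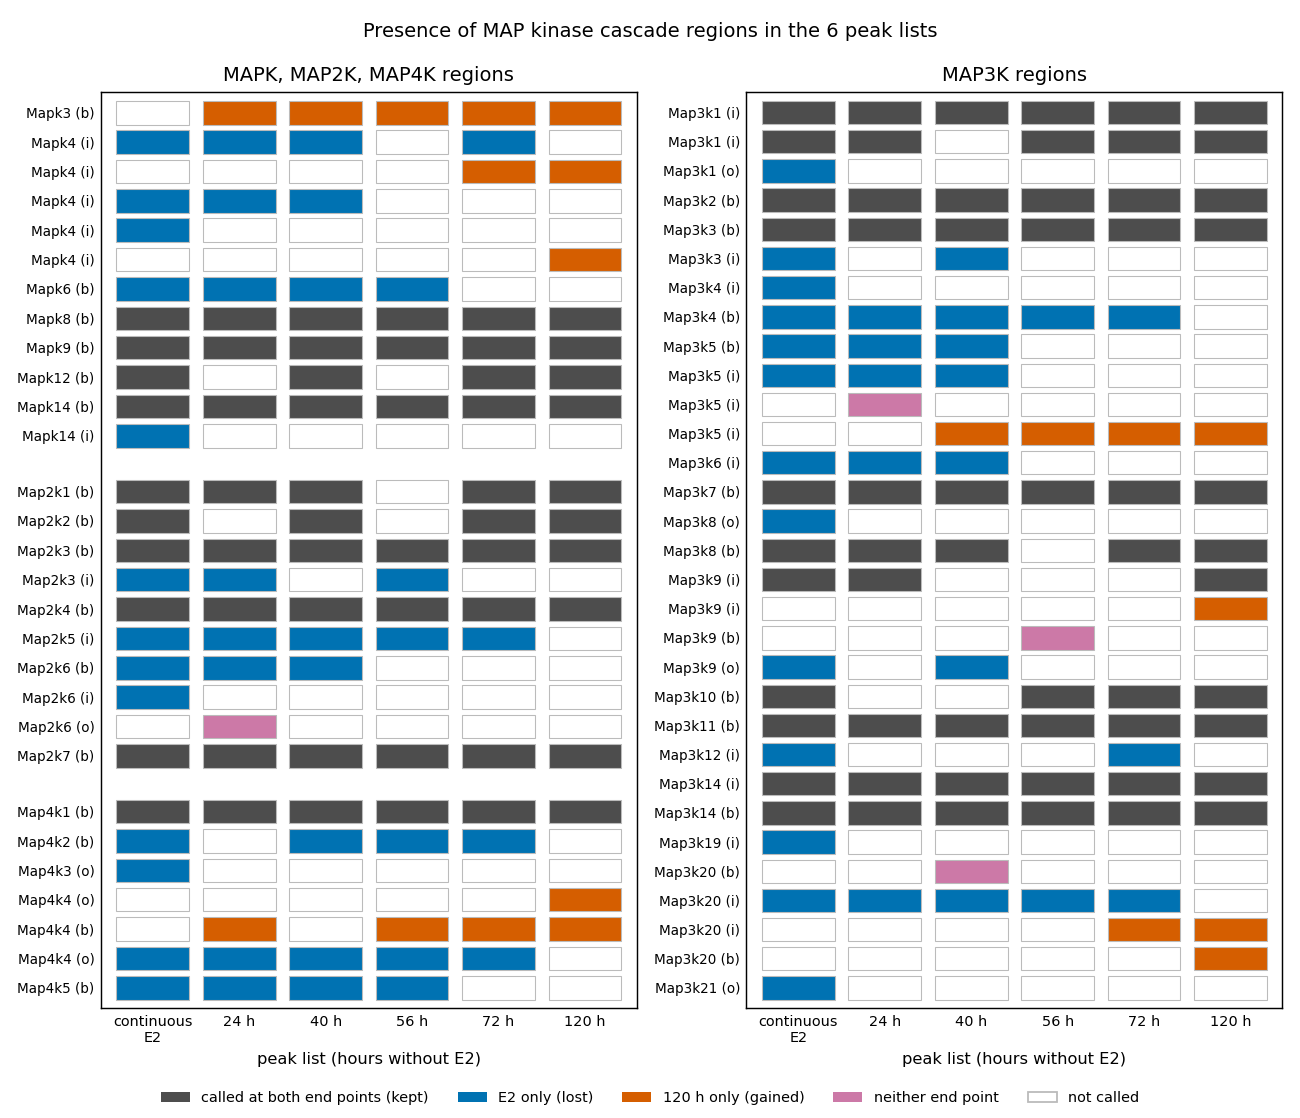
Presence of 60 of the 61 regions (rows, by member gene) in the 6 peak lists (columns). Filled boxes are calls, coloured by class at the end points; b, i and o mark regions within 1000 bases of the start or end of the member, inside it or outside it. The 14 full rows are regions called in all lists, and 17 rows have a call in 1 list only.

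In continuous E2, 48 of the 61 regions were called (78.7%, against 82.6% over all genes), and at 24 h 36 (59.0%, against 72.5%). At 40 h there were 37 (60.7%, against 63.6%), at 56 h 29 (47.5%, against 57.8%), at 72 h 33 (54.1%, against 61.6%) and at 120 h 31 (50.8%, against 51.4%). The 24 h list was the one in which the interval of the kinase genes, 46.5 to 70.5%, ended below the value over all genes, 1 of 6 lists compared. None of these differences was tested. Cleaning of the lists left out some long intervals. In the 24 h list such intervals covered uncalled regions at Mapk4, Map3k8 and Map4k2, and their part in the low 24 h share was not tested. Uncalled regions at Mapk4 were also covered in the continuous E2, 40 h and 56 h lists, and uncalled regions at Map3k8 in the 40 h and 56 h lists. Regions called in all 6 lists numbered 15 (24.6%, against 34.5% over all genes).

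Position and class went together. Of the 29 regions within 1000 bases of the start or end of their gene (a gene boundary), 18 were kept, 6 lost and 3 gained, and 2 were called at add-back times alone. Away from boundaries, 4 of 32 were kept, 20 lost and 6 gained, and 2 again had calls at add-back times alone. Boundary regions made up 47.5% of all (53.6% over all genes), 81.8% of the kept (77.5%), 23.1% of the lost (34.3%) and 33.3% of the gained (40.2%). Among boundary regions called in continuous E2, 25.0% were lost (12.0 to 44.9), against 29.6% over all genes, and away from boundaries 83.3% (64.1 to 93.3), against 73.5%. The intervals of the 2 kinds of region did not overlap, and the order over all genes was the same. The split by position was chosen after seeing the data, and several regions share a gene, so the gap between the intervals is no test. Kept regions were the widest, with a median of 999 bases, lost ones had 754 and gained ones 422, next to 968, 757 and 554.5 over all genes. These are widths of regions merged over the lists, and merging peaks of more lists can only widen a region. Gained regions also hold no peak of the continuous E2 list, whose median peak width was 839 bases, against 581 at 120 h. The order of the classes therefore cannot be read apart from how regions were built.

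**Figure D2:**
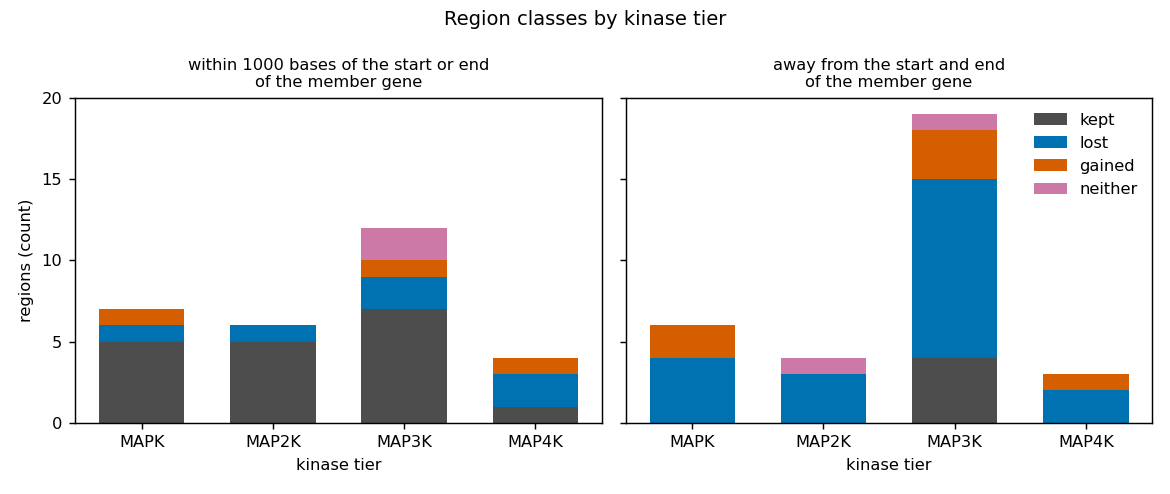
Number of regions of each class (stacked bars, counts) by kinase tier, at the start or end of the member gene (left) and away from it (right). Kept regions form 18 of 29 at gene boundaries and 4 of 32 elsewhere, and those 4 all belong to the MAP3K tier.

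By tier, the lost share of regions called in continuous E2 was 50% for MAPK (5 of 10, interval 23.7 to 76.3), 44.4% for MAP2K (4 of 9, 18.9 to 73.3), 54.2% for MAP3K (13 of 24, 35.1 to 72.1) and 80.0% for MAP4K (4 of 5, 37.6 to 96.4). All 4 intervals overlapped and no order of tiers can be read from them. Without Mapk4 the MAPK share was 28.6%. No MAP2K gene had a gained region, but only 5 MAP2K regions were called at 120 h, and for 0 of 5 the Wilson interval ends at 43.4%, while a floor of 3 counts allows a share of up to 60.0%.

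Among the MAPK genes, which encode the final kinases of the cascade, Mapk3 encodes ERK1. The Mapk3 boundary region (chromosome 7, 126759241 to 126759981) was called in every list except continuous E2, with widths of 528, 636, 438, 368 and 533 bases from 24 to 120 h. The widest Mapk3 peak was that of 40 h and the narrowest that of 72 h. Of gained regions over all genes, 22.9% had this presence in every list but continuous E2.

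The JNK genes Mapk8 and Mapk9 each kept a boundary region through all 6 lists, and Mapk10, the third JNK gene, had its nearest region 130112 bases away. Of the p38 genes, Mapk14 (p38 alpha) had a region over its start (chromosome 17, 28690893 to 28692489) in all 6 lists. That region, the widest kept one of the tier, also overlapped the neighbouring gene Slc26a8, so it cannot be given to Mapk14 alone. A second Mapk14 region, inside the gene (28736336 to 28736823), was called in continuous E2 alone. Mapk12 (p38 gamma) had a region 702 bases from a gene edge and 8840 bases from its RefSeq start, called in continuous E2 and at 40, 72 and 120 h. Mapk11 and Mapk13, the remaining p38 genes, had no region, the one nearest to Mapk11 being that of Mapk12.

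The atypical kinases Mapk6 (ERK3) and Mapk4 (ERK4) are each other's closest relatives and are not activated by the classical MAP2K proteins. The Mapk6 boundary region (chromosome 9, 75409321 to 75410510), the widest lost one of the tier, was called up to 56 h and not after. Its peaks were 1153, 1150, 980 and 897 bases wide from continuous E2 to 56 h. Mapk4 had the most regions of any member, 5, all of them inside the gene and none at its boundary. They ran from 73935062 to 73993288 on chromosome 18. The region at 73935062 to 73936041 was called in continuous E2 and at 24, 40 and 72 h, that at 73959448 to 73960310 up to 40 h and that at 73988821 to 73989336 in continuous E2 alone. Gained regions lay at 73948607 to 73949410, called at 72 and 120 h, and at 73992867 to 73993288, called at 120 h alone. Lost and gained regions were thus interspersed along the gene. Rows of the lists on this chromosome were repeated, and intervals of more than 10000 bases, left out here, covered the Mapk4 regions in the continuous E2, 24, 40 and 56 h lists and not in the others. In all, 18 of the absences of regions on chromosomes 18 and 19 fell under such a left-out interval, 13 of them at Mapk4, 4 at Map3k8 and 1 at Map4k2 (24 h), and the part of these intervals in those absences was not tested. The absence of both gained Mapk4 regions from the continuous E2 list was among the 13.

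The MAP2K tier was covered in full, with regions at 7 of 7 genes. Map2k1 and Map2k2 encode MEK1 and MEK2, the ERK activators. The Map2k1 boundary region (chromosome 9, 64253126 to 64253871) was called in every list but that of 56 h, with widths of 746, 623, 650, 497 and 609 bases. The Map2k2 one (chromosome 10, 81105633 to 81106548) appeared in the lists of continuous E2, 40, 72 and 120 h, with widths of 916, 863, 853 and 867 bases. Both were kept, and both were missing from the 56 h list, the second shortest with 8989 peaks.

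Map2k3 and Map2k6 encode MKK3 and MKK6, the activators of p38, and differed in presence. The Map2k3 promoter region (chromosome 11, 60931662 to 60932448) was called in all 6 lists, while a region 3328 bases into the gene was called in continuous E2 and at 24 and 56 h. Map2k6 had no region at 56 h or later. Its promoter region (chromosome 11, 110398811 to 110399709), the widest lost one of the tier, was called in continuous E2, 24 h and 40 h with widths of 787, 714 and 593 bases. Another region inside Map2k6 (110476370 to 110477006) was called in continuous E2 alone, and one 12157 bases beyond the gene (110537679 to 110538426) at 24 h alone. Map2k4 and Map2k7, the JNK activators MKK4 and MKK7, each kept a promoter region in all 6 lists. The Map2k7 region (chromosome 8, 4238025 to 4239344) was the widest kept one of the tier, at 1320 bases in continuous E2 and 791 at 120 h. Map2k5, the activator of ERK5, had a region over an internal RefSeq start, called in every list except 120 h, while Mapk7, which encodes ERK5 itself, had its nearest region 19105 bases away.

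Of the 18 MAP3K genes, 16 had regions, 31 in all: 11 kept, 13 lost, 4 gained and 3 with calls at add-back times alone. Regions called in all 6 lists lay at Map3k1 and Map3k14 away from the boundary, and at the boundaries of Map3k2, Map3k3, Map3k7, Map3k11 and Map3k14. Map3k7 encodes TAK1, which links Toll-like and cytokine receptors to p38, JNK and NF-kB, and Map3k14 encodes NIK of the noncanonical NF-kB pathway. The Map3k11 region (chromosome 19, 5688323 to 5689965), the widest kept one of all tiers at 1643 bases, also overlapped Pcnx3. The second Map3k14 region (chromosome 11, 103222797 to 103223239) was nearly constant in width, from 441 to 443 bases in every list, where the widths of the 15 constant kinase regions varied by a median of 345 bases. Over all genes, 27 of 5106 regions called in all lists (0.529%) varied by 10 bases or less.

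The ASK family of MAP3K genes had no start region called at 56 h or later. ASK kinases respond to oxidative and other stress and act through MKK3, MKK6, MKK4 and MKK7. The Map3k5 (ASK1) boundary region (chromosome 10, 19933644 to 19934843) was called in continuous E2, 24 h and 40 h, with widths of 1168, 1167 and 1010 bases. A narrower region inside Map3k5, 5127 bases from the gene edge (19939228 to 19939667), followed the same calls with widths of 440, 275 and 228 bases. The Map3k6 (ASK2) region over an internal RefSeq start (chromosome 4, 133240556 to 133241868), the widest lost one of the tier, was called in the same 3 lists, with widths of 1268, 1265 and 1255 bases. Map3k5 also had a gained region deep inside the gene (20104473 to 20104940), called from 40 h on, and a region at 24 h alone (20036595 to 20037180). Map3k15 (ASK3) had no region. Calls up to 40 h and not after were thus found at Map3k5, Map3k6, Map2k6 and Mapk4, 5 of 26 lost regions or 19.2% (8.51 to 37.9), next to 13.2% of lost regions over all genes, a value inside that interval. At Mapk4 a left-out long interval covered the absence at 56 h.

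**Figure D3:**
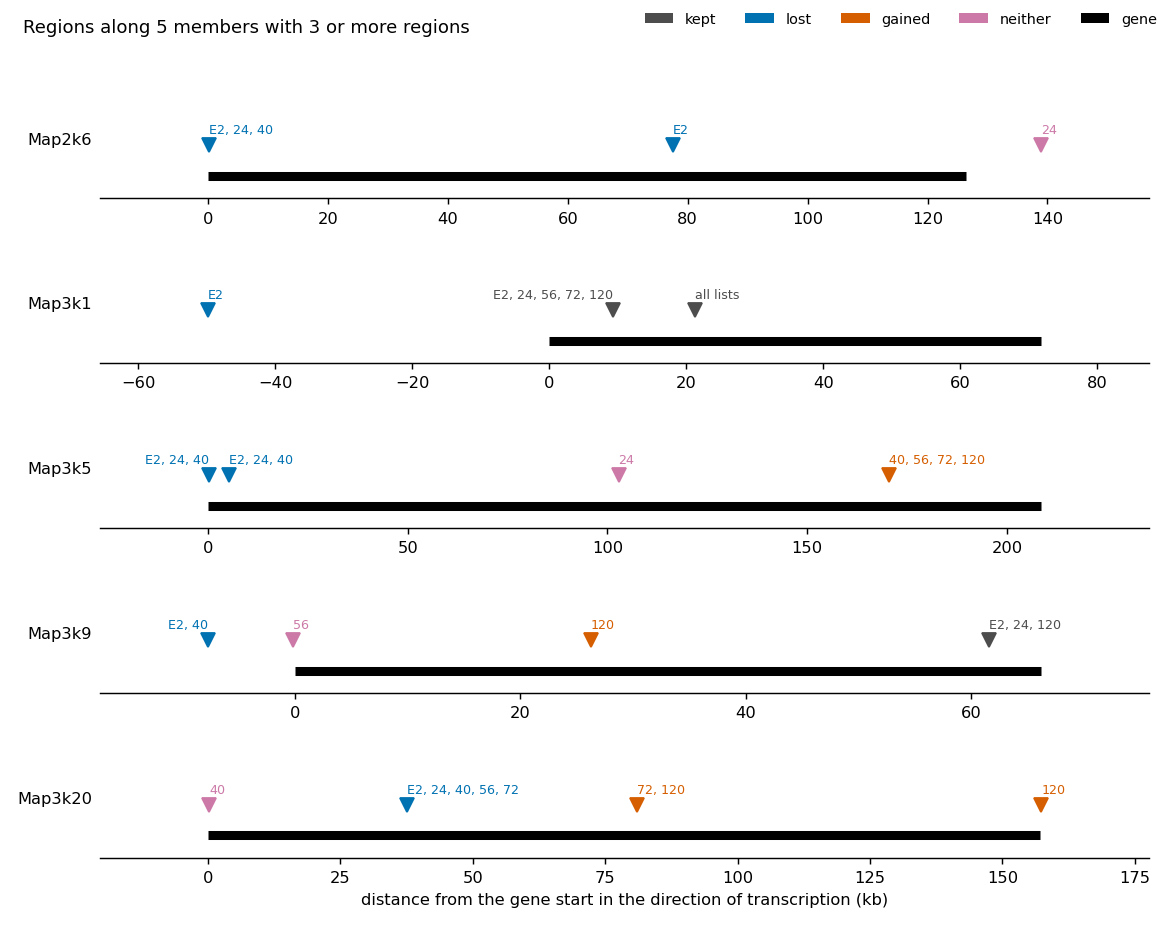
Regions (triangles, coloured by class) along 5 members with 3 or more regions and a strand in the RefSeq promoter table, as distance from the gene start in kb; labels give the lists with a call (E2 for continuous E2, otherwise hours without E2). At Map2k6 and Map3k5 the regions at the start were called up to 40 h, and at Map3k20 the lost region lies nearer the start than both gained regions.

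Among the MEKK genes, Map3k1 (MEKK1) had 2 kept regions inside the gene and 1 lost region 49437 bases outside it (chromosome 13, 111867706 to 111868452), called in continuous E2 alone. The kept region at 111796468 to 111797503 was called in all lists, and that at 111808251 to 111809624, over a RefSeq start, in all but 40 h. Map3k3 (MEKK3) kept its promoter region and lost one inside the gene. Map3k4 (MEKK4), an activator of p38 and JNK, had 2 lost regions, its boundary region (chromosome 17, 12318050 to 12319133) in every list except 120 h and another in continuous E2 alone. Map3k8 encodes TPL2, which drives MEK and ERK in macrophages. Its boundary region (chromosome 18, 4352691 to 4353603) was called in all lists but 56 h, and a region 35102 bases away in continuous E2 alone; left-out long intervals covered the absences at 24, 40 and 56 h.

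Of the mixed-lineage kinases, Map3k9 (MLK1) had 4 regions, each with other calls. The one inside the gene at 81719284 to 81719980 on chromosome 12 was called in continuous E2 and at 24 and 120 h, that at 81754756 to 81755109 at 120 h alone, that at the start (81781144 to 81781394) at 56 h alone, and that 7405 bases outside (81788575 to 81789118) in continuous E2 and at 40 h. Map3k10 (MLK2) had a region shared with Zfp607b, called in continuous E2 and at 56, 72 and 120 h. Map3k21 (MLK4) had 1 region, in continuous E2 alone. Map3k20 encodes ZAK, a sensor of stalled ribosomes. Its start region (chromosome 2, 72285578 to 72286259) was called at 40 h alone, the lost region inside the gene (72322949 to 72323407) in every list except 120 h, a gained one (72366609 to 72366815) at 72 and 120 h, and another near the gene end (72442811 to 72443090) at 120 h alone. The gained ones were narrow, at most 207 and 280 bases. Map3k12 (DLK) and Map3k19 had 1 lost region each, the Map3k12 one called in continuous E2 and at 72 h and the Map3k19 one in continuous E2 alone.

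All 5 MAP4K genes had regions. Map4k1 encodes HPK1, a kinase of blood cells, and its start region (chromosome 7, 28981606 to 28983144) was called in all 6 lists, with widths of 1463, 1339, 1083, 631, 752 and 642 bases; it also overlapped Eif3k. Map4k2 shared its start region with Men1 (chromosome 19, 6340047 to 6341519), the widest lost region of all tiers, called in continuous E2 and at 40, 56 and 72 h, with a left-out long interval over it at 24 h. The Map4k5 region, shared with Atl1, was called up to 56 h, and Map4k3 had a region 43706 bases away in continuous E2 alone. Map4k4 encodes HGK, a kinase of the cytoskeleton and stress signalling, and was the one MAP4K gene with gained regions. Its boundary region (chromosome 1, 39900585 to 39901357) was called at 24, 56, 72 and 120 h, with widths of 773, 253, 594 and 491 bases. A region 7369 bases outside the gene (39893218 to 39893533) was called at 120 h alone, and another 24782 bases outside (40051092 to 40051546) in every list except 120 h. Of the 5 MAP4K regions called in continuous E2, 3 were shared with a neighbouring gene (the kept one of Map4k1 and the lost ones of Map4k2 and Map4k5), so the lost share of the tier, 80.0%, rests in part on starts that belong to 2 genes.

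The add-back lists ask how far the calls of cells given E2 again were those of cells that never lost it. Of the 26 lost regions, 13 were called at 24 h, 15 at 40 h, 8 at 56 h and 7 at 72 h, or 50% (32.1 to 67.9), 57.7% (38.9 to 74.5), 30.8% (16.5 to 50) and 26.9% (13.7 to 46.1). Over all genes the shares were 63.6, 43.8, 28.1 and 28.5%. The kinase genes thus had their highest share at 40 h and not at 24 h, but each value over all genes lay inside the interval of the kinase genes. By tier, calls at 24, 40, 56 and 72 h were 3, 3, 1 and 1 of 5 for MAPK, 3, 2, 2 and 1 of 4 for MAP2K, 5, 7, 2 and 3 of 13 for MAP3K and 2, 3, 3 and 2 of 4 for MAP4K. Between 40 and 56 h the calls went from 3 to 1 of 5 in the MAPK tier and from 7 to 2 of 13 in the MAP3K tier, and did not change in number in the others. In the MAPK tier both calls that ended were of Mapk4 regions, under a left-out long interval at 56 h. The Mapk4 region at 73935062 to 73936041 was called again at 72 h. Such intervals also covered absences of lost regions at Mapk4 and Map3k8 (24, 40 and 56 h) and Map4k2 (24 h), and their part was not tested.

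The 9 gained regions were called in 2, 2, 3 and 5 cases at 24, 40, 56 and 72 h. These were 22.2% (6.32 to 54.7), 22.2% (6.32 to 54.7), 33.3% (12.1 to 64.6) and 55.6% (26.7 to 81.1), next to 32.4, 41.3, 49.0 and 65.3% over all genes, again inside the intervals. Those at Mapk4, Map3k9, Map3k20 and Map4k4 made up the 4 called at 120 h alone (44.4%, against 29.7% of gained regions over all genes). Left-out long intervals covered that Mapk4 region in continuous E2 and at 24, 40 and 56 h. Kept regions were called in 19, 19, 17 and 21 of 22 cases, or 86.4, 86.4, 77.3 and 95.5%, next to 93.1, 92.2, 91.6 and 94.8% over all genes. The share at 56 h, 77.3% (56.6 to 89.9), had an interval that ended below the value over all genes. The 5 kept regions missing at 56 h were those of Map2k1, Map2k2, Map3k8, Map3k9 and Mapk12, that of Map3k8 under a left-out long interval. This was 1 of 12 such shares compared.

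**Figure D4:**
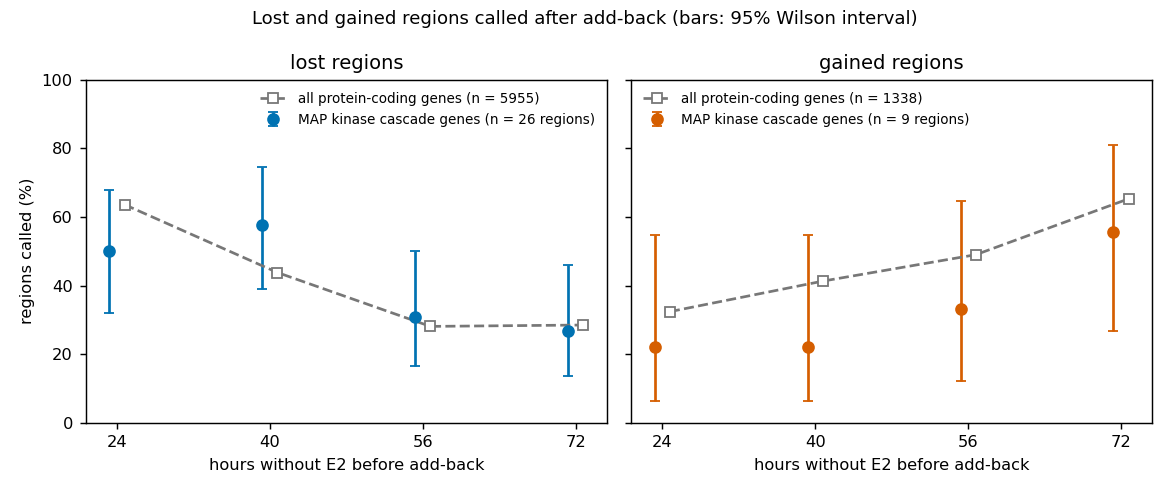
Share of lost (left) and gained (right) regions called after 24, 40, 56 or 72 h without E2 followed by add-back, in percent. Filled points are the kinase genes with 95% Wilson intervals over 26 and 9 regions, open squares all protein-coding genes, and each open square lies inside the interval beside it.

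Of the 35 lost and gained regions, 28 changed presence 1 time along the order of withdrawal, 80.0% (64.1 to 90.0), against 84.0% over all genes. For the lost ones it was 20 of 26 (76.9%, against 83.5%) and for the gained ones 8 of 9 (88.9%, against 86.2%). Among the lost ones, 9 were called in continuous E2 alone (34.6%, against 28.8% over all genes), 5 up to 40 h (19.2%, against 13.2%), 2 up to 56 h (7.69%, against 4.53%) and 4 in every list except 120 h (15.4%, against 16.9%). For the Mapk4 and Map3k8 regions called in continuous E2 alone, left-out long intervals covered the absences at 24, 40 and 56 h. The absence at 56 h of the Mapk4 region called up to 40 h was covered as well. None of 26 was called in continuous E2 and 24 h alone, for which the Wilson interval ends at 12.9% and a floor of 3 counts allows up to 11.5%, whereas 20.1% of lost regions over all genes had that presence. This presence was picked out after its count was seen, as 1 of the 5 orderly ways to be lost. The regions that came back after an absence were those of Map2k3, Map3k3, Map3k9, Map3k12, Map4k2 and Mapk4 among the lost, and the boundary region of Map4k4 among the gained. Left-out long intervals covered the absences before the return at Map4k2 (24 h) and Mapk4 (56 h), and their part was not tested.

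The 15 regions called in all lists had a lower median width at 120 h than in continuous E2. Their median widths were 1060, 1041, 860, 695, 715 and 652 bases from continuous E2 to 120 h. All 15 of 15 were wider in continuous E2 than at 120 h, as were 97.7% of such regions over all genes. The second Map3k14 region is among the 15 although nearly constant, with 442 bases in continuous E2 and 441 at 120 h. The median ratio of width at 120 h to that in continuous E2 was 0.695, next to 0.669 over all genes. Mapk14 had the largest step of the MAPK genes, with 1549 bases in the 24 h list, 902 in that of 40 h and 583 in that of 56 h. The share near the background leaves nothing particular to the kinase genes, and width is no measure of read depth.

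**Figure D5:**
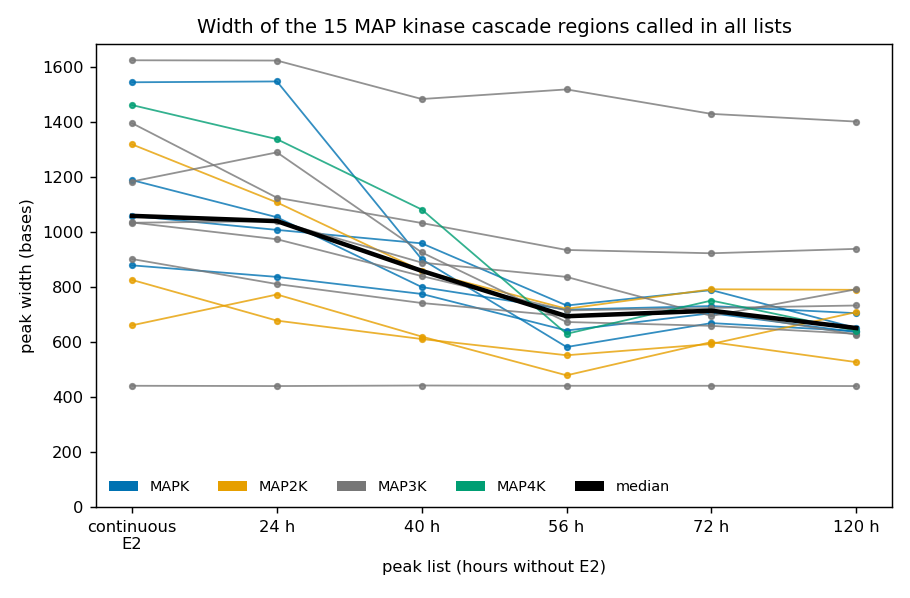
Peak width in bases (linear axis from 0) of the 15 kinase gene regions called in all 6 lists, 1 line per region coloured by tier, with the median in black. The median is 1060 bases with continuous E2 and 695 for 56 h, while the flat line near the bottom is the second Map3k14 region.

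Promoter sequence was looked at next. Of the 43 genes, 34 were in the RefSeq promoter table, with 46 entries, and 26 had an entry overlapping a called region. Among those with no entry were Mapk3, Mapk4, Mapk15, Map3k2, Map3k8, Map3k15, Map3k19 and Map4k4. In the 250 bases before the start, the 17 entries in kept regions had a median GC content of 60.0% and 19 CpG, and the 10 in lost regions 68.8% and 23.5 CpG. Over all genes the order was the other way round, with 62.4% and 19 CpG in kept and 59.2% and 14 CpG in lost regions. The ranges of the kinase genes overlapped, 48.4 to 85.2% for kept and 50.4 to 80.8% for lost, and the low end of the lost ones was Map2k6.

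The NF-Y box was found in 7 of 17 kept and 1 of 10 lost entries, the GC box in 9 and 8, the C/EBP motif in 3 and 0 and the AP-1 motif in 1 and 1. Over all 32851 entries, 33.8% held an NF-Y box, 32.7% a GC box, 9.56% the C/EBP motif and 6.75% the AP-1 motif. Over the 9865 entries that overlapped a region of any gene, these shares were 36.9, 64.2, 6.91 and 3.40%. The ETS core GGAA lay in 29 of the 30 entries with a region and in 93.4% of all entries, so it separated nothing. The cyclic AMP element TGACGTCA and the Hox and TALE composite TGATTNAT were in none of the 30, and in 1.55% and 2.82% of all entries, or 3.16% and 0.73% of those that overlapped a region. No test was made of these counts.

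Other genes of the pathway, 61 in number, had 93 regions at 53 genes: 46 kept, 33 lost, 8 gained and 6 with calls at add-back times alone. Of those called in continuous E2, 41.8% were lost (31.5 to 52.8), and of those at 120 h, 14.8% were gained (7.70 to 26.6), next to 48.7% and 17.6% over all genes. Among the Ras GTPases that start the ERK cascade, Hras had a boundary region in every list except 120 h, and Nras a boundary region at 24, 56, 72 and 120 h. The Nras calls were the same as those of the Map4k4 boundary, as were those of the gained Mapkapk3 region. How many gained regions over all genes had these calls was not counted, so nothing can be read from the match. Of the Raf kinases, Braf and Araf each kept a region in all lists.

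Adaptors and GTPases had 13 kept, 10 lost and 3 gained regions. The Grb2 boundary region, at the gene of the adaptor that brings Sos to receptors, was called in every list except continuous E2, as was that of Mapk3. The adaptor gene Gab2 had 2 lost regions, its boundary region called up to 40 h, and Rap1b, a Ras-like GTPase gene, had 2 lost regions. Nf1, a brake on Ras, had a gained region inside the gene at 24 and 120 h. Raf-level and MAP4K-like kinases had 6 kept, 6 lost and 1 gained, including 2 lost at Taok3. Scaffolds and activators had 9 kept, 6 lost and 2 gained, with 2 lost and 1 gained at Ksr1, a scaffold of Raf and MEK, and 1 gained at Iqgap1. The kinases activated by MAPK proteins had 8 kept, 8 lost and 1 gained, with 2 lost each at Mknk1 and Rps6ka1 and 1 gained at Mapkapk3, which acts downstream of p38. Nuclear targets had 9 kept, 3 lost and 1 gained, with 2 lost at Elk3 and 1 gained at Mef2a, and the atypical kinase gene Nlk kept its 1 region.

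Members with no region were Mapk7, Mapk10, Mapk11, Mapk13, Mapk15, Map3k13 and Map3k15. A region was assigned to 83.7% of the kinase genes, against 47.9% of all protein-coding genes. The rules differed: a region shared with a neighbour counted for the kinase gene, while over all genes it counted for 1 gene only. With 1 gene per region the kinase genes had 57 regions instead of 61, and their share under that rule was not counted. The kinase genes were also longer, with a median of 57064 against 17149 bases. The parts of the rule and of length in the difference between the shares were not tested. The farthest region counted lay 49437 bases from Map3k1, and the nearest one left out lay 52008 bases from Map3k8 (chromosome 18, 4278086 to 4279317), a lost region.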

How the data were processed

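The data were 6 deposited peak lists from 12 ATAC-seq libraries, each list named in the labels of both libraries of its group. A row gives an interval's chromosome and its ends, with no score. Per the labels' protocols, nuclei of 100000 cells were split for separate transposition reactions, so the 2 libraries of a group may be technical. The submitters' processing notes name BWA, MACS2 2.0 and STAR 2.5 without roles, and build mm9. Peaks lay within 1000 bases of a GRCm38 gene start in 49.3% to 65.1% of cases, and in 5.43% to 5.62% after a shift of 100000 bases, so GRCm38 was used.

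Exact duplicates and intervals over 10000 bases were dropped, overlapping rows merged, and the 6 lists merged into regions. The gene table gives no exons, so exon and intron were not used here. A region overlapping several genes counted for a kinase gene whenever it overlapped that gene. In the values over all genes, each region counted for 1 gene only, the overlapped gene with the nearest start or end. Kinase genes with a region were named, a few items excepted that are not reported here, and coordinates were given for gained regions, those in neither end point, those of genes with 3 or more regions and the widest lost and kept of each tier. Pathway genes were named for gained regions, 2 or more lost regions, or as Ras and Raf genes. Members, lists and rules were chosen with earlier results of these data known. Merging, presence and gene assignment were tested on simulated data. Software was pandas 2.3.3 and numpy 2.4.6 under Python 3.11.15, with scipy 1.17.1; plots were drawn in matplotlib 3.10.9. Alternatives covered overlap, list length, width, assignment, boundary window and chromosomes.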

Additional observations from a re-analysis of the deposited data

How the results depend on the processing

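No paired analysis was possible because the replicate numbers of the labels have no separate intervals behind them, only a joint list. Leaving out a library was not possible either. Across 13 alternative settings, 88 of 110 values stayed within the interval of the main value (a count within 1.5 times). Counts and percentages cannot change sign, and the difference in calls of lost regions between 72 and 24 h kept its sign. The intervals of the tiers are wide, so a value inside them says little. The 22 values that did not stay within are as follows, and where no construction is named the cause was not tested. The 61 regions became 33 with peaks at or above the median width and 138 when every gene within 50000 bases counted. With 50% reciprocal overlap (5 regions), and also with 1 gene per region (3 regions, added after seeing the data), 100.0% of MAP4K regions called in continuous E2 were lost. With lists of equal length by width, the gained share was 48.4% and the boundary share, 47.5% in the main analysis, 60.9%. With the wider peaks the boundary share was 69.7% and the MAP2K lost share 0.0%, on 2 regions. The split by position was also chosen after seeing the data and keeps fewer regions by construction. With the 29 boundary regions, the lost share was 25.0%, the gained share 14.3%, the difference in calls of lost regions between 72 and 24 h -50 points (main -23.1, interval -45.6 to -0.512), and the lost shares of MAPK, MAP2K and MAP3K 16.7%, 16.7% and 22.2%. With the 32 regions away from boundaries, these were 83.3% lost and 60.0% gained. The lost share was 100.0% for MAPK, MAP2K and MAP4K, on 4, 3 and 2 regions called in continuous E2, and 73.3% for MAP3K. The interval of the difference between 72 and 24 h is symmetric about its value and is not a Wilson interval. Without Mapk4 that difference stayed within the main interval, at -21.7 points, and its own interval was -46.2 to 2.77. Depth was unknown and limits every call.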
